A study of Mus musculus with 9 samples.

Results

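The metabotropic glutamate receptor genes Grm2, Grm3, Grm4, Grm5, Grm7 and Grm8 were followed across 3 lettered layers of the mouse piriform cortex. These 6 genes were taken by symbol from the 33964 genes with a symbol among 95533 counted transcripts, and each was represented by the transcript with the highest mean count over the 9 samples. Brain sections of wild type C57BL/6 mice, aged 8 weeks in the labels and slightly older in the study's methods, were laser-captured into layers A, B and C, with 3 samples of each and no treatment. The labels and methods give no key from the letters A, B and C to the anatomical layers I, II and III, so the letters are kept. Markers that the study lists by layer are compared below. They placed A as layer I and C as layer III, which left B for layer II. Nothing in the labels ties a sample to an animal, and p-values measure only the spread between these samples, which may be technical.

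Metabotropic glutamate receptors are G-protein-coupled receptors that adjust the strength and excitability of synapses on a slower time scale than glutamate-gated channels. Group I receptors, among them Grm5, couple through Gq to phospholipase C and lie mostly on the postsynaptic side. Group II (Grm2 and Grm3) and group III (Grm4, Grm6, Grm7 and Grm8) receptors couple through Gi/o, lower cyclic AMP and commonly act as brakes on transmitter release from presynaptic terminals. Grm3 is also known from astrocytes, and Grm6 mainly from the retina.

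The clearest contrast lay within group II. Transcripts of Grm3 were higher in layer A than in both other layers, by 5.13-fold against layer B and 3.02-fold against layer C, whereas those of Grm2 were lower in layer A, by 3.23-fold and 6.77-fold. The start regions of this oppositely distributed pair are shown first, from RefSeq on build GRCm38.p6. Each window runs from 250 bases before to 50 bases after the annotated start, written 5′ to 3′ on the gene's strand, at chr9:106656060-106656359 (minus strand) for Grm2 and chr5:9725303-9725602 (minus strand) for Grm3. Capitals mark every match, on either strand, to the GC box GGGCGG, the CCAAT box CCAAT, the NFI motif TTGGC, the E-box CACGTG and the cyclic AMP response element TGACGTCA.
Grm2: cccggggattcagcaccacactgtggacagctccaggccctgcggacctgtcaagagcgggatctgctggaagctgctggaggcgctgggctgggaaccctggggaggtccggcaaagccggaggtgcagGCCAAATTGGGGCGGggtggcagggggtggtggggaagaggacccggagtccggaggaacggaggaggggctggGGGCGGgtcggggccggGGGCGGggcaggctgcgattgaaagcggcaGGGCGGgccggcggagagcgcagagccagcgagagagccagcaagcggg
Grm3: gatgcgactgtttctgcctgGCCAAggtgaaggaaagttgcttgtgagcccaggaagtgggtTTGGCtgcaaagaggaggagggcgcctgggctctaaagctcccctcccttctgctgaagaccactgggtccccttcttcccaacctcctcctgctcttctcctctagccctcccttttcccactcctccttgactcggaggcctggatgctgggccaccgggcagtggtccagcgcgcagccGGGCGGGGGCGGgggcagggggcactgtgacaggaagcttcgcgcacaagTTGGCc
The Grm2 window was 72.0% G or C with 22 CpG dinucleotides, and the Grm3 window was 63.7% G or C with 11, against medians of 52.7% and 7 over all 32851 windows in the table. Grm2 held 4 GC boxes and 1 CCAAT box that abuts the only NFI motif and shares 1 base with a GC box, and Grm3 held 2 adjoining GC boxes and 3 NFI motifs. Among all windows, 35.7% held the GC box, 37.4% the CCAAT box, 46.7% the NFI motif, 7.15% the E-box and 1.79% the cyclic AMP response element, and neither gene held the last pair. These matches describe letters and not bound sites. The RefSeq start lay 29 bases from that of the counted transcript for Grm2 and 182 bases for Grm3. The table also held Grm7 and Grm8, so 4 of the 6 genes matched.

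The libraries held 23104306 to 76471683 counts. Mitochondrial ribosomal RNA took 55.3 to 70.2% of them in layer A, 12.8 to 28.1% in B and 20.5 to 57.1% in C, which left the fewest other counts in layer A replicates 1 and 2. Levels below are counts per 1000000 after TMM scaling (normalized CPM), on which 3 counts, the limit that a count of 0 allows, came to 0.0256 to 0.254 by library. This limit covers counting error only, since reads were amplified and carried no molecular identifiers. The layer B replicates 1 and 2 correlated at r = 0.987 across transcripts, and replicate 3 with them at 0.913 and 0.904.

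All 8 astrocyte markers examined were higher in layer A than in both other layers by edgeR's quasi-likelihood test, and their summed level was 4885 to 10364 CPM in layer A, 681 to 1140 in B and 1215 to 1674 in C. The 6 markers of excitatory neurons did not move as 1 group, with 1 higher and 2 lower in layer A against B and 1 higher and 3 lower against C. Camk2a was higher in layer A (2976 CPM on average, against 812 and 1122), while Nrgn was lower (14.3, against 59.3 and 54.8). Defining markers of mitral and tufted cells, whose axons run in the piriform cortex, were at or near 0, with means of at most 0.0409 CPM for Tbx21 and 0.00831 CPM for Eomes. Their other marker, Cdhr1, was lower in layer A, with log2 differences of -1.52 and -1.45. Of 7 markers of GABAergic neurons, 1 was higher in layer A against B and 2 were lower against C, and of 6 oligodendrocyte markers 1 was higher against B and none passed against C. Layer B replicate 3 stood apart from its group in both lists, with summed levels of 285 CPM for GABAergic markers (54.5 and 59.0 in replicates 2 and 1) and 211 CPM for oligodendrocyte markers (42.0 and 45.4 in replicates 1 and 2). All layers held the neuronal markers Slc17a7 and Tbr1. The study's supplement lists Slc22a8 for layer I, and Sst, Pvalb, Lhx6 and Neurod6 for layer III, with Neurod6 also for layer II. Here Slc22a8 had its highest mean in layer A (22.7 CPM, against 1.48 in B and 2.59 in C). The others had theirs in layer C, with Lhx6 at 2.24, 2.70 and 10.9 CPM in layers A, B and C. For Pvalb the margin was small (1.79 CPM in layer B and 2.03 in C). Its level in layer B replicate 3 was 4.62 CPM, above every layer C sample. For these genes, layer A behaved as the study's layer I, by Slc22a8 alone, and layer C as its layer III. Layer B was then left for layer II, with Neurod6 at 0.511, 2.73 and 7.70 CPM in layers A, B and C. The study drew its list from this same sequencing. The match therefore helps to place the letters and is no independent support for the list. In bulk tissue, fewer cells of a type, less RNA per cell and a different place of RNA within cells cannot be told apart. The paper proposes that locally translated transcripts of the neuropil were detected in layer I, which was not tested here.

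Of the 6 receptors, 4 passed an adjusted p of 0.05 between layers A and B, 1 higher and 3 lower in layer A, and the same 4 did not overlap between the layers. Across all 56416 tested transcripts 16.5% passed in this comparison, 10.7% higher and 5.83% lower in layer A, and 32.3% did not overlap. Between layers A and C, 5 of the 6 passed, 1 higher and 4 lower in layer A, and the same 5 did not overlap, against a background of 11.3% passing (6.98% higher, 4.35% lower) and 31.4% not overlapping. None passed between layers B and C by edgeR or by DESeq2, where the background was 0% by edgeR and 124 transcripts (0.220%) by DESeq2. There 3 receptors (Grm2, Grm3 and Grm4) had an unadjusted p under 0.05 and the same 3 did not overlap, against 4.11% and 8.59% of all transcripts. Log2 differences are given as the first-named layer minus the second. Their median over the 6 was -1.25 for A against B, -1.43 for A against C and -0.33 for B against C, beside -0.12, -0.01 and 0.07 over all transcripts. Comparisons that share the samples of a layer are not independent. With counts summed by gene, the background passing was 22.7% for A against B and 16.7% for A against C. The receptors passing were then again 4 and 5. Asked for a difference between any of the 3 layers, 5 receptors passed, against 14.3% of all transcripts.

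**Figure D1:**
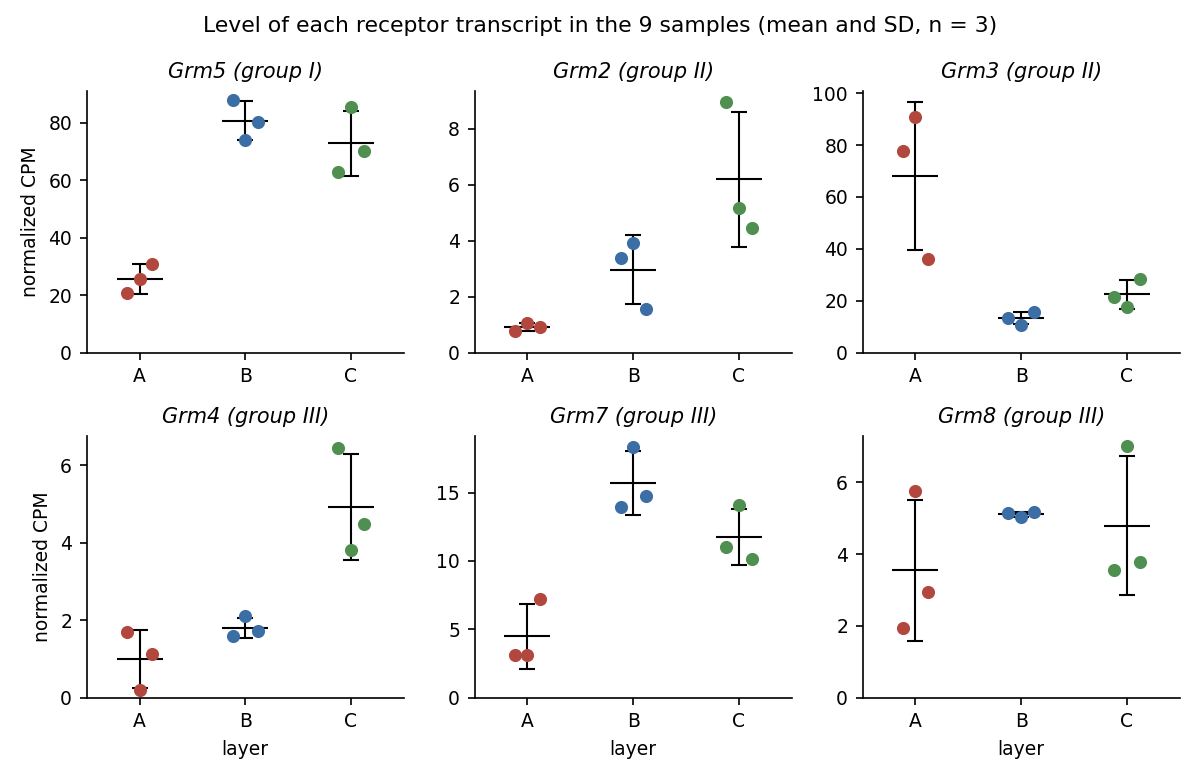
Normalized CPM (linear y axis from 0, scaled separately for each gene) of the 6 receptors in layers A, B and C (x axis), with 1 point a sample, the mean as a horizontal line and the SD as the error bar (n = 3). Grm3 has its 3 highest points in layer A (36.0 to 90.8), while Grm5, Grm2 and Grm7 have their 3 lowest points there.

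Group I was represented by Grm5, the postsynaptic receptor that raises intracellular calcium through phospholipase C. Its main transcript ENSMUST00000125009 (gene ENSMUSG00000049583, GRCm38 chromosome 7, 87584393 to 88134907, plus strand, 10 exons, 8047 bases) stood at 20.7, 25.5 and 30.9 CPM in layer A, 87.9, 74.2 and 80.3 in B and 63.0, 85.4 and 70.1 in C. Every sample of layer A lay below every sample of the other layers, which overlapped each other. The means were 25.7 ± 5.13, 80.8 ± 6.90 and 72.9 ± 11.4 CPM (SD, n = 3). By edgeR's quasi-likelihood test, adjusted over all transcripts after Benjamini and Hochberg, Grm5 was lower in layer A than layer B by a log2 difference of -1.65 (SE 0.280, adjusted p = 0.00123) and lower than layer C by -1.50 (SE 0.279, adjusted p = 0.00487). The difference between layers B and C was 0.15, with a 95% interval from -0.43 to 0.73, so a difference in either direction remains possible.

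Grm2, a mostly presynaptic autoreceptor, was the scarcer gene of group II. Its only counted transcript ENSMUST00000023959 (gene ENSMUSG00000023192, chromosome 9, 106643117 to 106656080, minus strand, 6 exons, 4711 bases) stood at 0.762, 1.07 and 0.898 CPM in layer A, from 9, 16 and 36 counts. It reached 3.39, 3.93 and 1.56 CPM in B and 8.96, 5.17 and 4.45 CPM in C. The layers formed 3 separate ranges in the order A, B, C, with layer B replicate 3 nearest to layer A. The log2 difference was -1.69 against layer B (SE 0.467, edgeR adjusted p = 0.0210) and -2.76 against layer C (SE 0.477, edgeR adjusted p = 0.00344). The first call was lost without any single one of layer A replicates 1, 2 or 3 or layer B replicates 1 or 2 (edgeR adjusted p from 0.0517 to 0.0836), while the second held without each library in turn. Between layers B and C the log2 difference was -1.07 (95% interval -1.98 to -0.15, edgeR adjusted p = 1.00). The antisense gene Gm28111 shares 448 exon bases with Grm2, and these strand non-specific libraries cannot separate reads of both.

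Grm3, found on astrocytes as well as neurons, was the only receptor of the 6 to be higher in layer A. Its only counted transcript ENSMUST00000004076 (gene ENSMUSG00000003974, chromosome 5, 9485541 to 9725170, minus strand, 6 exons, 3049 bases) stood at 77.6, 90.8 and 36.0 CPM in layer A, 13.5, 10.8 and 15.5 in B and 21.6, 17.5 and 28.4 in C. The 3 layers did not overlap, and layer A varied most, with replicate 3 below the other 2. The means were 68.1 ± 28.6, 13.3 ± 2.38 and 22.5 ± 5.53 CPM (SD, n = 3). The log2 difference was 2.36 between layers A and B (SE 0.365, edgeR adjusted p = 0.000704) and 1.59 between layers A and C (SE 0.356, edgeR adjusted p = 0.0111). The first held without each library in turn, and the second was lost without layer A replicate 2 (log2 difference 1.34, edgeR adjusted p = 0.0565), layer C replicate 1 (1.57, 0.0742) or layer C replicate 2 (1.45, 0.0511). Between layers B and C the log2 difference was -0.76 (95% interval -1.51 to -0.02, edgeR adjusted p = 1.00).

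The astrocyte markers moved with Grm3. Their summed level in layer A was 10364, 8139 and 4885 CPM in replicates 1 to 3, so the replicate lowest for Grm3 was also the lowest for astrocyte markers, while replicate 2, the highest for Grm3, was not the highest for them. Markers of oligodendrocyte precursors moved with it too, at 57.6 to 97.2 CPM summed in layer A, 12.6 to 14.8 in B and 26.1 to 34.5 in C, with 3 of 3 markers higher in layer A than layer B and 2 of 3 higher than layer C. Markers of microglia (4 of 6 higher in layer A in both comparisons), of endothelial cells (5 and 4 of 5) and of meninges (5 of 5 in both) did so as well. The part of these cell types in the Grm3 result was not tested.

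Grm4, a presynaptic group III receptor, had its highest mean in layer C. Transcript ENSMUST00000118161 (gene ENSMUSG00000063239, chromosome 17, 27425899 to 27513406, minus strand, 11 exons, 4607 bases) stood at 1.69, 0.200 and 1.12 CPM in layer A, 1.59, 2.10 and 1.73 in B and 6.45, 3.83 and 4.50 in C. The layer C samples lay above all others, while layers A and B overlapped. Layer A replicate 2 held 3 counts, which is the limit itself. The log2 difference was -2.30 between layers A and C (SE 0.552, edgeR adjusted p = 0.0154), a 4.94-fold lower level in layer A, and the call was lost without layer C replicate 1 (-2.07, edgeR adjusted p = 0.0870). Against layer B layer A differed by -0.86 (95% interval -2.01 to 0.30, edgeR adjusted p = 0.326). Between layers B and C the log2 difference was -1.45 (95% interval -2.55 to -0.35, edgeR adjusted p = 0.932).

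Grm7, the group III receptor placed at the release site of many terminals, followed a course like that of Grm5. Transcript ENSMUST00000172951 (gene ENSMUSG00000056755, chromosome 6, 110645582 to 111567230, plus strand, 10 exons, 4197 bases) stood at 3.13, 3.14 and 7.26 CPM in layer A, 13.9, 18.3 and 14.8 in B and 11.0, 14.1 and 10.2 in C. All layer A samples lay below the rest, and layers B and C overlapped. Layer A was lower than layer B by a log2 difference of -1.77 (SE 0.378, edgeR adjusted p = 0.00501) and lower than layer C by -1.35 (SE 0.375, edgeR adjusted p = 0.0296). The call against layer B held without each library in turn. That against layer C was lost without layer A replicate 1 (edgeR adjusted p = 0.1196), layer A replicate 2 (0.127), layer C replicate 1 (0.0927) or layer C replicate 2 (0.0944), and with the second most abundant transcript of the gene in place of the first (-1.16, edgeR adjusted p = 0.0950). The antisense gene Gm20387, with a mean of 29.8 counts, shares 130 exon bases with Grm7, and its reads cannot be told apart from those of Grm7 there.

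Grm8, another group III receptor of presynaptic terminals, passed no test. Transcript ENSMUST00000115323 (gene ENSMUSG00000024211, chromosome 6, 27275119 to 28134545, minus strand, 11 exons, 3856 bases) stood at 1.95, 5.74 and 2.94 CPM in layer A, 5.14, 5.03 and 5.16 in B and 3.56, 7.02 and 3.79 in C. The layers overlapped in all 3 comparisons. The 95% intervals of the log2 difference were -1.45 to 0.39 between layers A and B, -1.34 to 0.50 between layers A and C and -0.80 to 1.01 between layers B and C, and within these bounds a difference was not detectable.

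**Figure D2:**
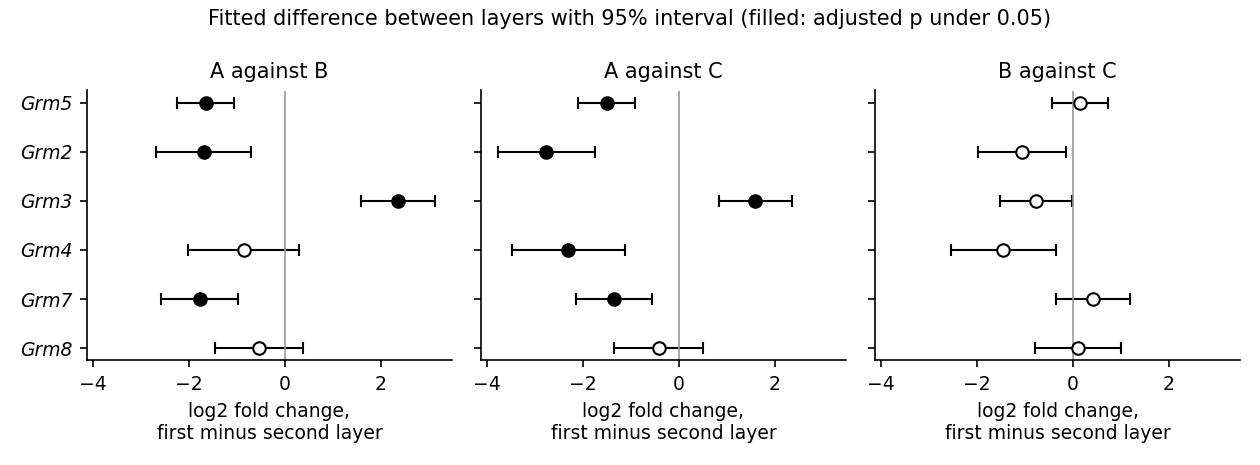
Log2 fold change of each receptor (point) with its 95% interval (line) in the 3 comparisons of layers, from the edgeR fit, filled where the adjusted p is under 0.05; values above 0 are higher in the first-named layer. Grm3 alone lies above 0 in both panels that start from layer A (2.36 and 1.59), and no receptor passed the adjusted threshold between layers B and C.

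Levels of different genes were compared as CPM per kilobase of the counted transcript. Orders, shares and ratios between genes depend on which transcript and length are used. In layer B replicate 3, the shorter Grm5 transcript ENSMUST00000107263 held 730 counts over 3516 bases, and Grm3 held 746 over 3049 bases. With that transcript Grm3 would rank above Grm5 there. Grm5 would stay above in layer B replicates 1 and 2 (1747 and 1781 counts, against 599 and 467). In layer A the order of the means was Grm3 (22.3), Grm5 (3.19), Grm7 (1.07), Grm8 (0.919), Grm4 (0.218) and Grm2 (0.193). In layer B it was Grm5 (10.04), Grm3 (4.35), Grm7 (3.73), Grm8 (1.33), Grm2 (0.628) and Grm4 (0.392), and in layer C it was Grm5 (9.05), Grm3 (7.38), Grm7 (2.80), Grm2 (1.31), Grm8 (1.24) and Grm4 (1.07). Some neighbours changed places between samples of 1 layer, namely Grm7 with Grm8 and Grm2 with Grm4 in layer A, Grm3 with Grm7 and Grm2 with Grm4 in layer B, and Grm3 with Grm5 and the 3 scarcest genes in layer C. Grm3 led in all 3 samples of layer A and in layer C replicate 3, and Grm5 led in the other 5.

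Per kilobase, the group II genes made up 78.4 ± 11.98% of the summed level of the 6 receptors in layer A, 24.3 ± 2.06% in B and 38.1 ± 7.90% in C (SD, n = 3). Group I, as Grm5 alone, made up 12.7 ± 6.89%, 49.0 ± 2.63% and 39.5 ± 5.01%, and group III 8.87 ± 5.10%, 26.7 ± 3.87% and 22.4 ± 3.44%. These are descriptive shares within a sample and do not depend on library scaling, but they do depend on the transcript chosen for each gene. Nearly all of group II in layer A was Grm3, which alone held 63.6 to 85.4% of the sum there, 17.9 to 24.7% in B and 24.4 to 39.9% in C. Grm2 held 0.736 ± 0.256%, 3.08 ± 1.34% and 5.82 ± 2.55% in the same layers.

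**Figure D3:**
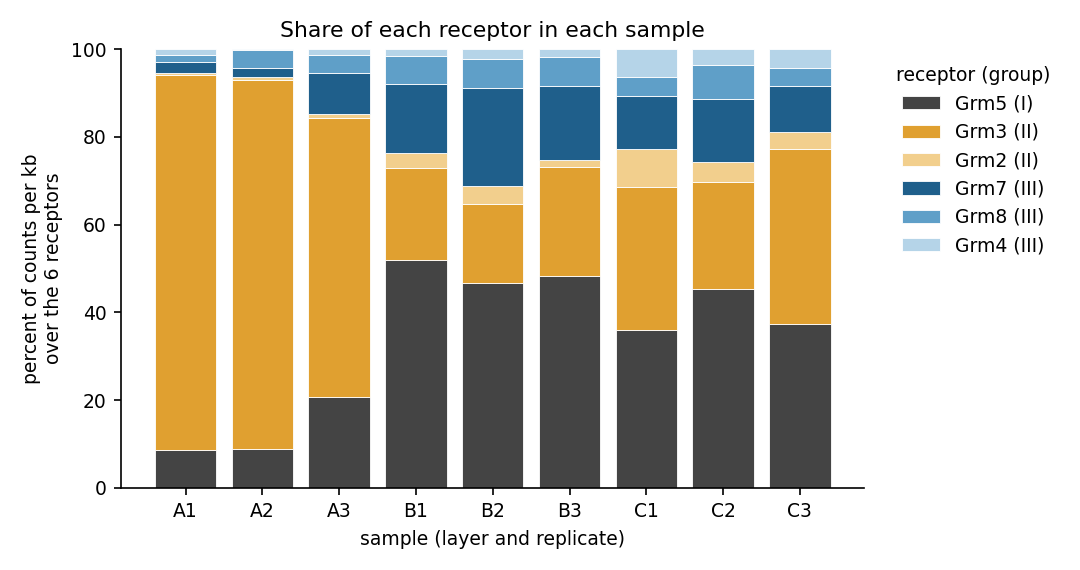
Percent of the summed counts per kilobase of the 6 receptors that each gene held, as stacked bars for each of the 9 samples of layers A, B and C. Grm3 takes 63.6 to 85.4% of each layer A bar, and Grm5 takes 46.7 to 51.9% of each layer B bar.

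Ratios between receptors within a sample showed the same contrast. The log2 ratio of Grm3 to Grm5 per kilobase, from counts plus 0.5, was 3.31, 3.23 and 1.62 in layer A, -1.31, -1.38 and -0.97 in B and -0.15, -0.89 and 0.10 in C. By the main transcripts, Grm3 thus exceeded Grm5 6.59-fold on average in layer A and Grm5 exceeded Grm3 2.33-fold in layer B. Grm3 exceeded Grm2 by a mean log2 ratio of 6.72 in layer A, 2.88 in B and 2.52 in C. By contrast, the log2 ratio of Grm5 to Grm7 had similar means, at 1.66 ± 0.467, 1.43 ± 0.327 and 1.69 ± 0.136 (SD, n = 3) in layers A, B and C. Its single samples ran from 1.15 to 2.07 in layer A, 1.08 to 1.72 in B and 1.58 to 1.84 in C. The log2 ratio of Grm4 to Grm7, both of group III, was -1.01, -3.90 and -2.81 in layer A, a spread that overlapped both other layers, and -3.24 ± 0.0178 in B and -1.41 ± 0.559 in C, which did not overlap each other.

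Within each gene, all tested transcripts differed in the same direction between layer A and either other layer, whether or not they passed. The 6 genes had 21 transcripts in the count tables and 19 were tested, of which 1 was higher and 7 were lower in layer A than layer B, 1 was higher and 6 were lower than layer C, and none passed between layers B and C by edgeR, with 3 at an unadjusted p under 0.05. In Grm5, 3 of 4 transcripts were lower in layer A than layer B and 2 of 4 lower than layer C, and in Grm7 3 of 5 and 1 of 5 were. None of the 6 transcripts of Grm8 passed any of these tests by edgeR, and none had an unadjusted p under 0.05. Transcripts of a gene share most exons and hence reads, and are not separate measurements.

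Layer B replicate 3 stood apart in how counts were divided among the receptors' transcripts, a pattern picked out after its values were seen. Of the 13 tested transcripts other than the main ones, set as a percent of their gene's main transcript, 9 were lowest in that library, 3 lay within the range of the other 8 libraries and 1 was highest. The 1 was ENSMUST00000115324 of Grm8, the gene's second most abundant, at 99.6% against 87.3 to 95.7%. The transcript ENSMUST00000107263 of Grm5, whose bases lie wholly inside the main one, had 18.9% of the main transcript's counts in that library (95% Wilson interval 17.7 to 20.2) and 35.7 to 76.4% in the other 8. For Grm7 the transcript ENSMUST00000071076 had 54.6% (50.9 to 58.2), against 75.7 to 95.7%, and for Grm8 the transcript ENSMUST00000090512 had 48.4% (42.2 to 54.6), against 83.4 to 91.3%. These intervals take the main transcript's counts as trials and leave out amplification, so they are likely too narrow. The shorter transcript's counts need not be a subset of those trials, and only 97.0% of the Grm7 one's bases lie inside the main transcript. Without layer B replicate 3, the log2 differences between layers A and B were -1.60 for Grm5 (edgeR adjusted p = 0.00103), -1.95 for Grm2 (0.00331), 2.54 for Grm3 (0.000493) and -1.75 for Grm7 (0.00361).

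**Figure D4:**
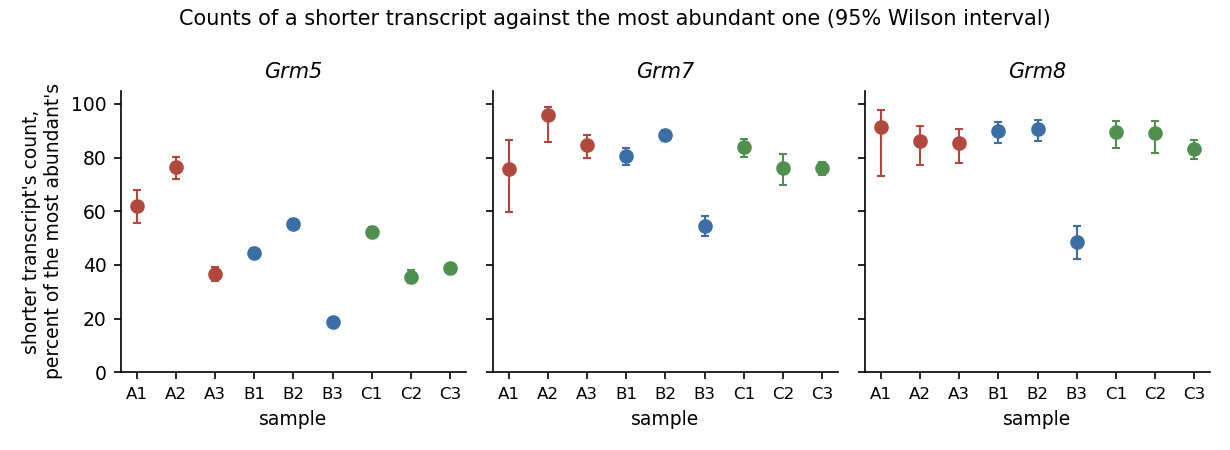
Counts of a shorter transcript as a percent of those of the gene's most abundant transcript in each of the 9 samples, for Grm5, Grm7 and Grm8. Bars are 95% Wilson intervals that take the most abundant transcript's counts as trials and leave out amplification. Layer B replicate 3 is the lowest sample in all 3 genes, at 18.9, 54.6 and 48.4%.

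The signalling partners of the receptors were read from a list of 34 genes. Grm6 was not tested, with counts in 1 sample only, and of the other 33 genes 5 were higher and 8 lower in layer A than layer B, and 3 were higher and 10 lower than layer C by edgeR, with the backgrounds given above. None passed between layers B and C by edgeR or DESeq2, and 3 (Shank1, Rgs8 and Elfn1) had an unadjusted p under 0.05 there by edgeR. The medians of the list's log2 differences were -0.29 and -0.27 against -0.12 and -0.01 for all transcripts. The count against layer B fell from 13 to 7 without layer A replicate 1 or layer B replicate 1. The count against layer C fell from 13 to 6, 5, 2 and 6 without layer A replicate 1, layer A replicate 2, layer C replicate 1 and layer C replicate 2. Calls over all transcripts fell in the same fits, to 9.92% and 10.4% against layer B and to 4.85%, 5.78%, 2.45% and 6.72% against layer C. The 2 left without layer C replicate 1 were Homer1 and Elfn1, and the 5 left without layer A replicate 2 were Homer1, Homer2, Kcnj6, Kcnj9 and Elfn1.

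On the Gq side, through which group I receptors act, 1 of 5 genes was lower in layer A in both comparisons and none was higher. This was Plcb1, a phospholipase C, at 49.1 ± 5.14, 128 ± 47.8 and 112 ± 38.7 CPM (SD, n = 3) in layers A, B and C, with log2 differences of -1.39 and -1.19 (edgeR adjusted p = 0.0100 and 0.0311).

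The scaffold proteins that tie group I receptors to the postsynaptic density split by gene. Homer1 was lower in layer A, with log2 differences of -1.55 (edgeR adjusted p = 0.00664) against layer B and -1.75 (0.00656) against layer C. Its paralogue Homer2 was higher in layer A, at 177 ± 86.9, 41.4 ± 7.01 and 54.5 ± 13.7 CPM (SD, n = 3), with log2 differences of 2.10 (edgeR adjusted p = 0.00159) and 1.70 (0.00951). Shank1, which binds Homer proteins, was higher too, with 1.92 (edgeR adjusted p = 0.00107) and 1.05 (0.0403). Homer3, Shank2 and Shank3 did not pass, so 2 of the 6 scaffolds were higher and 1 lower in both comparisons.

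Among the 11 genes of the Gi/o side, through which group II and III receptors act, 2 were higher and 4 lower in layer A than layer B, and 1 was higher and 4 lower than layer C. The 3 listed subunits of G-protein-gated potassium channels were lower in layer A, with log2 differences against layers B and C of -1.89 and -1.42 for Kcnj3, -1.52 and -1.73 for Kcnj6 and -1.68 and -1.89 for Kcnj9. The G-protein alpha subunits went different ways. Gnai1 was lower in layer A (-1.12 and -1.53), Gnai2 was higher (1.67 and 1.40), and Gnai3 was higher than layer B (1.14, edgeR adjusted p = 0.0447) with a difference of 1.04 against layer C (adjusted p = 0.0841). None of the 4 adenylyl cyclases passed.

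Of the 11 regulators and binding partners, 1 was higher and 2 were lower in layer A than layer B, and 4 were lower than layer C. Rgs7, which speeds the switching-off of Gi/o proteins, was lower in both (-1.11 and -1.19). Rgs4 and Rgs8, of the same family, were lower than layer C (-1.28 and -1.18). Ncdn, a neuronal protein that binds group I receptors, was lower than layer B (-1.30), and the receptor kinase Grk3 was higher than layer B (1.25). Elfn1, a synaptic adhesion protein that binds group III receptors across the cleft, stood at 4.92 ± 1.95, 6.61 ± 4.39 and 21.7 ± 5.40 CPM (SD, n = 3) in layers A, B and C. It was lower in layer A than layer C by a log2 difference of -2.14 (edgeR adjusted p = 0.00993). Like Grm4, Elfn1 had its highest mean in layer C. Grm7 and Grm8, also of group III, had theirs in layer B (15.7 and 5.11 CPM, against 11.8 and 4.79 in C). For both, the samples of layers B and C overlapped and the difference did not pass. Between layers B and C the log2 difference of Elfn1 was -1.72 (edgeR adjusted p = 0.606), and without layer B replicate 3 it was -2.46 (edgeR adjusted p = 0.0486). In that fit 17 of 55684 transcripts (0.0305%) passed. The library left out there, which stood apart in its markers, held Elfn1 at 11.7 CPM, against 3.66 and 4.50 in replicates 1 and 2.

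**Figure D5:**
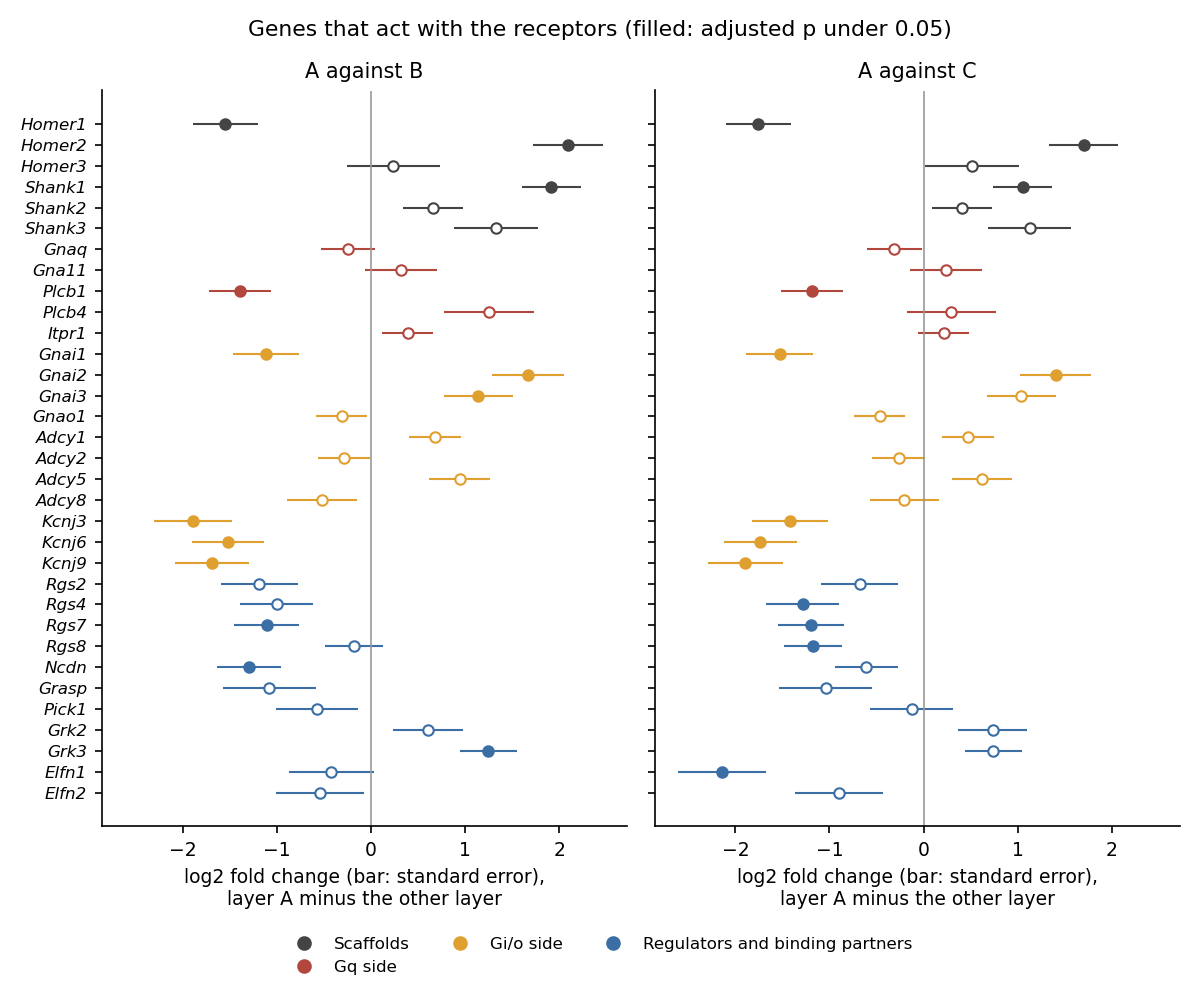
Log2 fold change (x axis) of each of the 33 tested signalling partners (y axis, by gene and coloured by role), with layer A against layer B on the left and against layer C on the right; bars are standard errors of the edgeR fit and filled points have an adjusted p under 0.05. Homer2, Shank1 and Gnai2 are filled to the right of 0 (higher in layer A) in both panels, and Homer1, Plcb1 and the 3 Kcnj genes to the left.

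Genes with a course over the 9 samples most like that of each receptor were listed among 11148 protein-coding genes by the Pearson correlation of log2 CPM, as a description. The samples share layer and depth, and no test is given. The closest to Grm5 were Dmxl2 (r = 0.993), Atp2b1 (0.987) and Adra2a (0.981), and to Grm7 Ptprk (0.992), Armc9 (0.981) and Pcdha9 (0.980), whose counts are uncertain because genes of the protocadherin alpha cluster share exons. Grm3 was followed most closely by Adgre1 (0.993), Scd2 (0.993) and Kit (0.991), all higher in mean level in layer A. Adgre1 is the macrophage and microglial antigen F4/80 and Scd2 a fatty acid desaturase. The closest to Grm2 were Ccdc167 (0.978), Tmem200a (0.964) and Elavl3 (0.954), to Grm4 Tnfrsf21 (0.964), Zfp827 (0.946) and Nfasc (0.942), and to Grm8 Rbak (0.934), Zbtb9 (0.933) and Mrpl51 (0.926).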

How the data were processed

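RNA from laser-captured piriform cortex was amplified, made into strand non-specific libraries and sequenced as paired reads of 50 bases in 9 samples. The authors deposited raw counts per Ensembl transcript, not normalized. The submitters' processing notes name bcl2fastq 1.8.4, Bowtie, HTSeq 0.5.3 and mm10. How reads shared by several transcripts were counted is not given in the sources used here, so isoforms and antisense partners can share reads. Identifiers were joined to GENCODE on GRCm38 (86.7% found).

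A transcript was kept if 3 or more samples held 10 or more of its counts (56416). TMM factors scaled the libraries, and 1 quasi-likelihood fit to all 9 samples (edgeR 4.0.16, R 4.3.3) gave every test. The p-values were adjusted over all tested transcripts after Benjamini and Hochberg. The threshold was an adjusted p of 0.05. The code was tested on simulated data. DESeq2 1.42.0, other scalings and filters, a replicate block, and leaving out each library were alternatives. Correlations used log2(CPM + 0.5).

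The receptors, partner list and marker lists were chosen with earlier results of these data known. All 6 receptors were named, with the listed partners that passed in any comparison and the 3 most similar genes (mean CPM at least 1) for each receptor. Motifs, the shorter transcripts and the marker genes given by value were picked without such a rule. A few listed partners are not reported here and were left out of the list's counts.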

Additional observations from a re-analysis of the deposited data

How the results depend on the processing

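Of the single-receptor comparisons under all alternatives, 295 kept direction and side of the threshold, 15 kept direction but lost the threshold, and 2 changed direction. The 2 were Grm8 between layers B and C, at -0.11 without layer C replicate 1 and -0.07 without layer C replicate 3, against 0.11 with all samples (-0.11 to 0.48 over the libraries left out in turn), none of them past the threshold. Grm2 against layer B was also lost in a fit of only the 6 samples of layers A and B (-1.64, edgeR adjusted p = 0.0504). With at least 10 counts required in all 9 samples, Grm2 and Grm4 were no longer tested and 3 receptors passed between layers A and C and 3 in the test of any difference. Leaving out 1 library at a time, 3 to 4 receptors passed between layers A and B, 2 to 5 between layers A and C (2 without layer C replicate 1, where calls over all transcripts fell from 11.3% to 2.45%), 0 between layers B and C and 4 to 5 in the test of any difference. The partner counts, an alternative set added after seeing the data, were 7 to 16 between layers A and B, 2 to 16 between layers A and C and 0 to 1 between layers B and C. The 1 was Elfn1 without layer B replicate 3, where 0.0305% of all transcripts passed. Other scalings, DESeq2, no filter on low counts, counts summed by gene and leaving out mitochondrial transcripts moved none of the receptor counts.

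Replicate numbers are shared between layers, but nothing ties them to animals, so they were not treated as pairs. Deviations from the layer means correlated from -0.22 to 0.27 for same-numbered samples and from -0.42 to 0.47 for differently numbered ones. With 3 samples a layer, these correlations cannot decide whether the numbers are pairs. With the replicate number as a block, 4, 5 and 0 receptors passed in the 3 comparisons, as without it, and 5 in the test of any difference, with 9184, 6384 and 0 transcripts overall against 9329, 6389 and 0.

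Depth limits the scarce receptors in layer A, where Grm4 held 3 to 45 counts and Grm2 9 to 36. With 3 samples a layer, differences between layers B and C of the size measured for Grm2, Grm3 and Grm4 did not pass adjustment over all transcripts.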
